A study of Mus musculus with 11 samples.

Results

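The genes described here are 10 members of a pair of calcium-handling families, the S100 genes S100a4, S100a6, S100a10, S100a11 and S100a16 and the annexin genes Anxa1, Anxa2, Anxa3, Anxa5 and Anxa6. They were taken by symbol, 10 of the 27998 genes of the 10X tables, and all 10 are also among the 24489 genes of the Smart-seq2 tables. The cells were hepatic mesenchymal cells of adult male C57BL/6 Pdgfrb-BAC-eGFP mice, in which a BAC transgene with the Pdgfrb promoter drives GFP, so that every group, controls included, carried this reporter and held only cells sorted as GFP+ CD45- CD102-. Of 5 10X libraries, each pooled from 3 mice, 3 came from the HSC isolation (healthy mice, mice 72 h after 1 dose of CCl4, and mice given CCl4 for 6 weeks), and a pair came from the digestion labelled PF (healthy mice and mice given CCl4 for 6 weeks). The 6 Smart-seq2 plates held wells of healthy mice, of mice 14 d after bile duct ligation (BDL) and of mice given CCl4 for 6 weeks, from the PF digestion except for HSC-isolated wells of healthy mice on plate 6. CCl4 is a hepatotoxin that injures the hepatocytes around the central vein, and BDL blocks bile flow and injures the liver from the portal side.

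S100 proteins are small proteins with EF hands, a loop-and-helix fold that binds calcium, and they act by docking onto other proteins. Annexins bind to membrane phospholipids when calcium is present, and take part in membrane repair, vesicle traffic and the link of membranes to actin. The families meet physically, since S100a10 forms a complex with annexin A2 at the plasma membrane and S100a11 binds annexin A1. In mesenchymal tissue S100a4 has long been used as a fibroblast marker, and S100a6, or calcyclin, as a gene of growing and activated cells.

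All 5 S100 genes lie on chromosome 3 of GRCm38, between 90537254 and 93564643, a stretch of 3.03 Mb. S100a16 (90537254 to 90543151), S100a4 (90603771 to 90606045) and S100a6 (90612882 to 90624181) are neighbours, with 6837 bases between the end of S100a4 and the start of S100a6. S100a11 (93520488 to 93526287) and S100a10 (93555080 to 93564643) lie at the other end. Anxa5 is on the same chromosome (36448923 to 36475894), while Anxa1 is on chromosome 19 (20373428 to 20390944), Anxa2 on chromosome 9 (69453620 to 69491795), Anxa3 on chromosome 5 (96793339 to 96845966) and Anxa6 on chromosome 11 (54979108 to 55033445). All 10 are annotated as protein coding.

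The promoters of 4 members are shown because these genes had the patterns described below: S100a4 and S100a6 were nearly silent in healthy HSCs, while S100a11, farther along the same chromosome, and the annexin gene Anxa2 were high there. RefSeq start sites on GRCm38.p6 matched 7 of the 10 members, with 8 windows. Each line gives the 150 bases before the RefSeq start site, on the + strand, with capitals for matches to 3 motifs that do not overlap here, the TATA box (TATAAA), the GC box of Sp1 (its letters being GGGCGG) and the site of the factor AP-1 (with the letters TGANTCA):
S100a4, chr3:90603620-90603769: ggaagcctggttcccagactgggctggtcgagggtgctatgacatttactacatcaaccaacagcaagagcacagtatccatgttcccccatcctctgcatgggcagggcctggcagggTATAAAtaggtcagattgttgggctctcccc
S100a6, chr3:90612744-90612893: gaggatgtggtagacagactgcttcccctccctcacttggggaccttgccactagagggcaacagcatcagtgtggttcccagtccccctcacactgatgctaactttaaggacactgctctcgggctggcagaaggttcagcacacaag
S100a11, chr3:93520346-93520495: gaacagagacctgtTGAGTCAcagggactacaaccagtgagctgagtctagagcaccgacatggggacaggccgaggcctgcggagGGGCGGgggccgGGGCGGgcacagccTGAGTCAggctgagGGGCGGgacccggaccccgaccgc
Anxa2, chr9:69453533-69453682: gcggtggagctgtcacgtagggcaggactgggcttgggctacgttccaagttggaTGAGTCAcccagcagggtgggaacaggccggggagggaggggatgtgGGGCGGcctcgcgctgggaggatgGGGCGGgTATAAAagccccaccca

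The S100a4 window holds a TATAAA that begins 31 bases before the start site and no GC box or AP-1 match. The S100a11 window holds GC boxes that begin 64, 52 and 24 bases before its start and AP-1 matches 136 and 38 bases before it, and the Anxa2 window holds all 3 kinds of letters. In the S100a6 window none of the 3 was found. Searched on both strands over the full window of 250 bases before and 50 bases after the start, the TATA box occurs in 13.6%, the GC box in 35.7% and the AP-1 letters in 7.81% of 32851 promoters. Over this span S100a16, also nearly lacking in healthy HSCs, held none of the 3 at its first start site. At its second it held a GC box 30 and an AP-1 match 192 bases before the start. Anxa1, present in healthy HSCs, held only a TATA box, and Anxa5, also present there, none of the 3. The printed windows thus do not stand for all members, and a link between motifs and levels was not tested.

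The 5 libraries held between 5454 and 7310 kept cells and between 25965670 and 86664085 unique molecular identifiers (UMIs, which count molecules), with median UMIs per cell from 4300 to 11344. Libraries shared between 33 and 74 cell barcodes. Cells were clustered without the S100 and annexin genes and named from marker lists, which gave fibroblast-like (FB-like), hepatic stellate cell-like (HSC-like) and vascular smooth muscle cell-like (VSMC-like) classes. All 6850 kept cells of the healthy HSC library were HSC-like, as were 7127 of the 72 h library and 5423 of the 6-week library. The PF libraries gave 4087 FB-like and 1643 VSMC-like cells from healthy mice, and 2696 and 2949 after 6 weeks of CCl4, so HSC-like cells differ from the other classes also in library and digestion. Levels are UMIs for each 1000000 UMIs of a class in a library (CPM), with 95% Poisson intervals that cover counting error only. Since UMIs tag the 3′ end of each molecule, CPM needs no correction for gene length. With 1 library for each condition and digestion, no test between conditions was possible on these cells, and a member was counted as past the fold used when its CPM ratio was above 2 or below 0.5 with at least 20 CPM in either group.

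In the healthy liver 7 members stood at 62.0 CPM or more in each class, and the other 3 were nearly lacking in HSC-like cells. S100a6 stood at 2603 CPM in FB-like cells and 1023 in VSMC-like cells, against 4.42 (3.83 to 5.07) in HSC-like cells, a ratio of 589 between FB-like and HSC-like cells. S100a16, a widely expressed member of the family, stood at 353 CPM in FB-like, 107 in VSMC-like and 1.19 (0.893 to 1.54) in HSC-like cells. S100a4 was seen with only 2 UMIs in the 6850 HSC-like cells, against 22.0 CPM in FB-like and 43.0 (37.8 to 48.8) in VSMC-like cells. The gene used as a fibroblast marker was thus higher in healthy VSMC-like than in healthy FB-like cells, with intervals that do not overlap.

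The share of cells with a UMI followed the same order. S100a6 was seen in 99.0% of FB-like, 82.0% of VSMC-like and 1.81% of healthy HSC-like cells, whose median depths were 4888, 3218 and 6718 UMIs, so the class with the fewest positive cells was the most deeply sequenced. S100a4 was seen in 7.36%, 10.7% and 0.0292% of cells in the same order, and S100a16 in 76.4% of FB-like and 0.774% of HSC-like cells. When each cell was thinned to 2000 UMIs, S100a6 was left in 95.9%, 73.4% and 0.757% of cells.

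**Figure D1:**
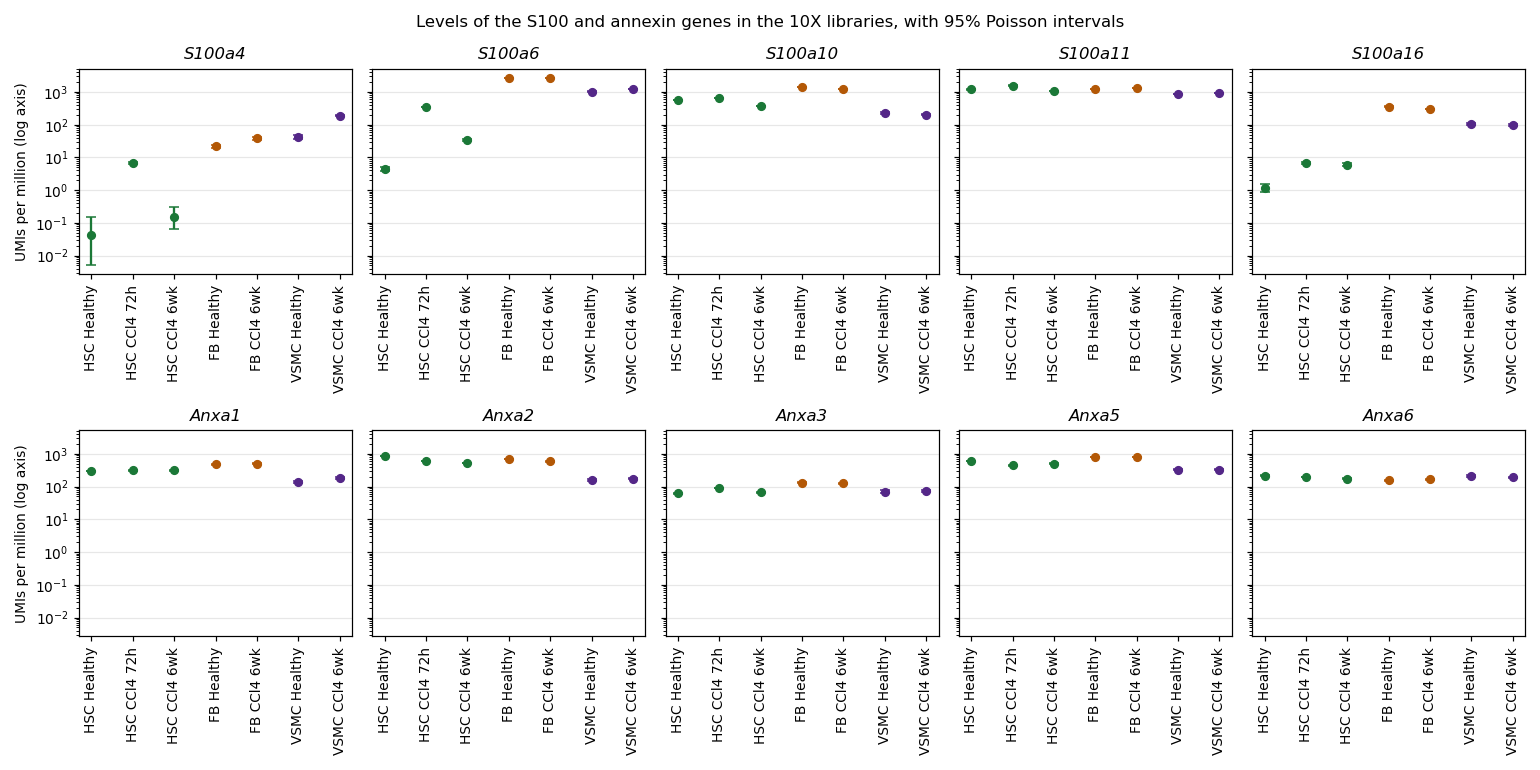
Level of each S100 and annexin gene in the 10X libraries, in CPM on a log axis shared by all panels, with 95% Poisson intervals. HSC-like cells are green, FB-like orange and VSMC-like purple. S100a4, S100a6 and S100a16 span orders of magnitude between classes, while S100a11 and Anxa6 stay within a factor of 1.80 and 1.35.

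The other S100 genes and the annexins were present in all 3 classes. S100a11 ranged from 871 CPM in healthy VSMC-like to 1571 CPM in HSC-like cells at 72 h, a span of 1.80-fold over the 7 combinations of class and condition. Anxa6, a longer annexin with a duplicated core, spanned only 1.35-fold, and 5 of its 6 neighbouring levels had overlapping intervals, the gap below VSMC-like cells at 6 weeks being the exception. S100a10 was highest in FB-like cells (1436 CPM) and lowest in VSMC-like cells (227 CPM), a ratio of 6.31, with HSC-like cells at 576 CPM between them. Its partner Anxa2 was instead highest in HSC-like cells (851 CPM), where it stood above FB-like (700 CPM) and VSMC-like cells (159 CPM). Anxa5, which binds phosphatidylserine on dying cells, stood at 813 CPM in FB-like, then 617 in HSC-like, then 331 in VSMC-like cells. Anxa1, a mediator of the anti-inflammatory action of glucocorticoids, stood at 479, 301 and 137 CPM in the same order, and Anxa3 at 130, 62.0 and 69.2 CPM.

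Healthy Smart-seq2 wells gave the same order of classes for most members. Here CPM is reads for each 1000000 reads of all wells of 1 mouse on 1 plate, termed a portion, and reads depend on transcript length, so levels are compared only within a gene. Healthy HSC-like wells came from a pair of portions (312 wells) of plate 6. FB-like and VSMC-like wells of healthy mice came from 6 portions each. The ratio of FB-like to HSC-like levels lay on the same side of 1 as in 10X for 10 of 10 members, that of VSMC-like to HSC-like levels for 8 of 10 (S100a11 and Anxa6 differed) and that of FB-like to VSMC-like levels for 9 of 10 (Anxa3 differed). S100a6 stood at 957 ± 462 (SD, n = 6) CPM in FB-like and 412 ± 128 (n = 6) in VSMC-like wells, against 10 reads in the 154 wells of one HSC-like portion and 294 reads in the 158 wells of the other. Anxa2 stood at 1126 and 1205 in the HSC-like portions, above the 697 ± 70.7 (n = 6) of FB-like and the 223 ± 23.8 (n = 6) of VSMC-like wells. S100a16 had 4 reads and S100a4 14 reads in all HSC-like wells together. HSC-like wells came from the HSC isolation and the other classes from the PF digestion, so isolation and class cannot be told apart. Within plate 6 alone, S100a6 stood at 197 CPM in the 19 FB-like and 201 CPM in the 34 VSMC-like wells, and Anxa2 at 593 and 195 CPM, on the same sides of the HSC-like portions.

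**Figure D2:**
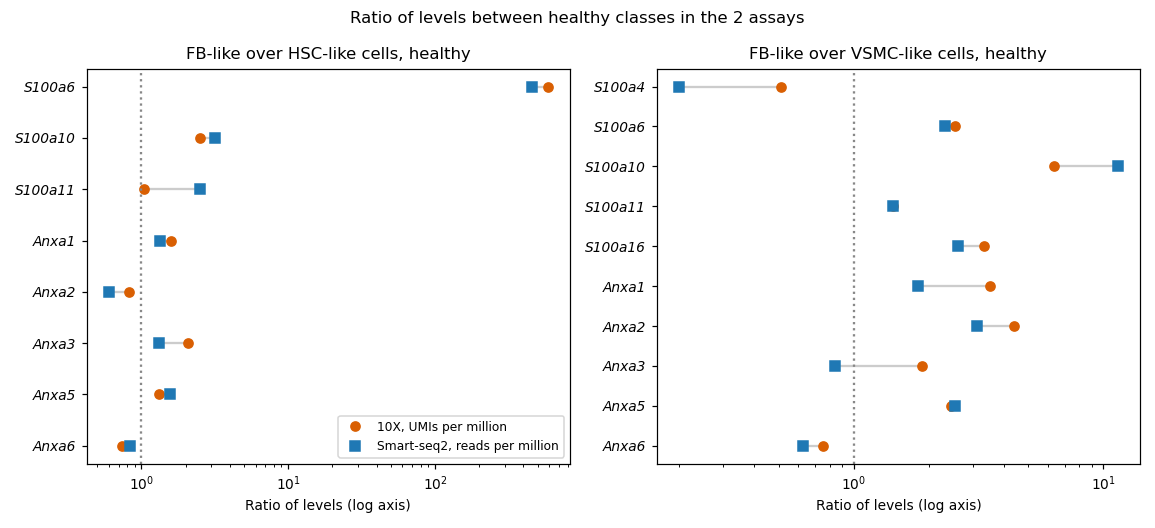
Ratio of the level in healthy FB-like cells to that in healthy HSC-like cells (left) and VSMC-like cells (right) on a log axis, for 10X (circles) and for the mean of the Smart-seq2 portions (squares). The dotted line marks a ratio of 1, and S100a4 and S100a16 are left out on the left because HSC-like cells held so few of their molecules. By Smart-seq2, S100a10 and S100a4 lie farthest from 1 on the right, and Anxa3 is the gene whose squares and circles lie on opposite sides.

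At 72 h after a single dose of CCl4, S100a6 in HSC-like cells went from 4.42 to 342 CPM (338 to 346), a ratio of 77.4 (67.5 to 89.3), and was seen in 65.7% of cells in place of 1.81%. After thinning to 2000 UMIs the shares were 34.8% and 0.757%. In the library of 6 weeks of CCl4 it stood at 34.2 CPM (32.6 to 35.9), 7.74 times the healthy level (6.70 to 8.99), and was left in 5.35% of thinned cells. From 72 h to 6 weeks it was again 1 of 8 members past the fold used, downward, where 3.76% of all genes were past it downward and 4.83% upward. S100a6 was the only one of the 8 members with at least 20 CPM past the fold used at 72 h, where 6.43% of all genes were past it upward and 9.53% downward, and again at 6 weeks, where 2.73% were past it upward and 1.56% downward. Most HSC-like cells were in other clusters in each library: clusters 1 and 3 in healthy mice, cluster 0 at 72 h and clusters 5 and 7 at 6 weeks.

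S100a4 and S100a16 stayed under 20 CPM in HSC-like cells but were not flat. S100a4 went from 2 UMIs in the healthy library to 567 UMIs (6.76 CPM, 6.21 to 7.34) at 72 h, in 5.64% of cells, and back to 8 UMIs (0.155 CPM) at 6 weeks. S100a16 went from 1.19 to 6.74 CPM (6.20 to 7.32) at 72 h and stood at 6.01 CPM (5.36 to 6.72) at 6 weeks. S100a4 and S100a6 thus shared a peak at 72 h, while the S100a16 levels of both injured libraries had overlapping intervals.

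The abundant members stayed within 2-fold of the healthy level. Among the ratios of all genes at 20 CPM, Anxa2 and S100a10 at 6 weeks lay low, at percentiles 7.69 and 9.17. From healthy to 72 h to 6 weeks, S100a11 went from 1199 to 1571 to 1088 CPM, S100a10 from 576 to 668 to 370 CPM, and Anxa3 from 62.0 to 89.9 to 66.7 CPM, each highest at 72 h. Anxa2 (851, 601 and 534 CPM) and Anxa5 (617, 444 and 507 CPM) were lower in both injured libraries. Anxa6 stood at 215, 197 and 174 CPM. Anxa1 (301, 311 and 315 CPM) stayed within 1.05 times its healthy level in CPM. Over the alternative settings the Anxa1 ratio ran from 0.980 to 1.15 at 72 h and from 0.971 to 1.20 at 6 weeks. Under another scaling, by the median of the gene ratios, Anxa6 at 72 h stood at 1.02 times the healthy level in place of 0.918, and S100a11 at 6 weeks at 1.05 in place of 0.908, so no direction is given for these. Against this scaling the median gene in CPM lay at -0.16 at 72 h and -0.20 at 6 weeks on the log2 scale. The median member ratio was 1.10 at 72 h and 0.865 at 6 weeks, against 0.863 and 0.857 over all genes at 20 CPM.

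HSC-like clusters 1, 3, 5, 7 and 11 each held at least 113 cells of the healthy and of the 6-week library. Clusters 0, 9, 10 and 14 held only 6 to 32 healthy cells and were left out here. S100a10 and Anxa2 were lower after 6 weeks in all 5 clusters compared, with ratios from 0.413 to 0.691 for S100a10 and 0.551 to 0.806 for Anxa2. S100a11 (0.662 to 0.879), Anxa5 (0.732 to 0.899) and Anxa6 (0.776 to 0.888) were also lower in all 5, so the joint difference is not particular to this pair. These are ratios of CPM, in which the median gene of the class lay at -0.20 on the log2 scale at 6 weeks. The direction of the ratios nearest 1 therefore depends on the scaling. S100a6 was higher at 6 weeks in 3 of the 5 clusters, with ratios from 0 to 3.10, against 7.74 in the class as a whole, and S100a16 in 2 of 5. S100a6 went from 12.2 to 22.4 CPM in cluster 5 and from 24.3 to 10.7 CPM in cluster 7, while cluster 14, with 143 CPM at 6 weeks, held 21 healthy cells. In single HSC-like cells thinned to 2000 UMIs the counts of S100a10 and Anxa2 were hardly related, with a Pearson r of 0.015 over 6736 healthy cells, against 0.236 over 3892 healthy FB-like cells. This contrast was not particular to the pair: S100a10 and S100a11 gave 0.064 and 0.286 in the same cells. These values are descriptions of cells of 1 library each, in which sparse counts hold r low.

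Within HSC-like cells the S100a6 molecules lay with collagen. Cells were divided by 2-means into collagen-high and collagen-low by Col1a1, Col1a2 and Col3a1, which made 7.43% of healthy cells, 72.6% of cells at 72 h and 31.0% at 6 weeks collagen-high. S100a6 stood at 39.7 against 1.74 CPM in healthy cells, 434 against 38.2 CPM at 72 h (ratio 11.4, 10.6 to 12.3) and 80.3 against 12.4 CPM at 6 weeks (ratio 6.48, 5.81 to 7.24). Even collagen-low cells at 72 h were above the healthy average of 4.42 CPM. S100a4 at 72 h (8.62 against 0.615 CPM) and S100a16 at 6 weeks (12.8 against 2.79 CPM) also lay with the collagen-high cells. Anxa2 did not: it was lower in collagen-high cells at 72 h (565 against 720 CPM) and at 6 weeks (449 against 575 CPM). A cut on a continuous score makes ranges rather than cell types, and 4.26% to 9.39% of cells lay near it.

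The cells were also divided by their zonation score, the level of genes of portal HSCs minus that of genes of central HSCs. S100a6 was lower in portal-scoring than in central-scoring cells in each library, with ratios of 0.581 in healthy cells, 0.277 at 72 h (111 against 402 CPM) and 0.267 at 6 weeks (12.7 against 47.7 CPM). Anxa1 lay the other way, at 354 against 269 CPM in healthy cells and 445 against 233 CPM at 6 weeks, a ratio of 1.91, but 323 against 308 CPM at 72 h. At 6 weeks the other annexins and S100a10 and S100a11 were also higher in portal-scoring cells, with ratios from 1.17 for Anxa6 to 1.53 for Anxa3, while S100a16 (0.298) went with S100a6.

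**Figure D3:**
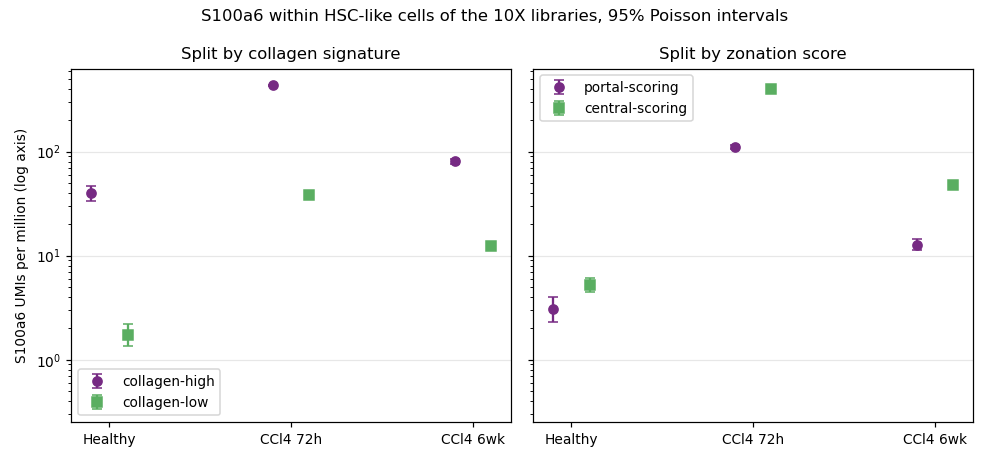
S100a6 level within HSC-like cells, in CPM on a log axis, for each 10X library, divided by collagen signature (left) and by zonation score (right), with 95% Poisson intervals. The collagen-high cells lie above the collagen-low cells in each library, and the portal-scoring cells below the central-scoring cells.

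Clusters showed the same unevenness. At 72 h, S100a6 stood at 400 CPM in cluster 0 (4381 cells, led by Plagl1, Sectm1a and Cthrc1), at 372 CPM in the dividing cells of cluster 9 (1488 cells, led by Ube2c and Cenpf) and at 25.3 CPM in cluster 10 (1167 cells, led by Alpl). At 6 weeks it stood at 143 CPM in cluster 14 (798 cells, led by Alcam), against 22.4 CPM in cluster 5 and 10.7 CPM in cluster 7. In the 826 cells at 72 h that scored high for proliferation genes, S100a10 (868 against 628 CPM) and Anxa1 (389 against 296 CPM) were higher and Anxa6 (158 against 205 CPM) lower than in the other cells, while S100a6 was at 322 against 346 CPM.

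Markers of other cells moved with these results. The 8 FB markers summed to 31.4 CPM in healthy HSC-like cells, 283 CPM at 72 h and 546 CPM at 6 weeks, against 11345 CPM in healthy FB-like cells, and none of the 8 was at 0. The 6 VSMC markers summed to 594, 1901 and 993 CPM, and the 7 HSC markers to 27246, 5943 and 14987 CPM. The FB markers were thus highest at 6 weeks and S100a6 at 72 h. As a share of the healthy FB-like level, S100a6 at 72 h was at 13.1%, S100a4 at 30.7%, S100a16 at 1.91% and the FB markers at 2.49%. At 6 weeks S100a6 was at 1.31%, S100a4 at 0.703% and S100a16 at 1.70%, each below the FB markers at 4.81%. In the 1400 cells at 72 h without a UMI of any FB marker, S100a6 stood at 177 CPM (169 to 184) and S100a4 at 3.56 CPM, against 2.73 CPM for S100a6 in the 5862 such cells of the healthy library. S100a16 in these cells stood at 1.82 CPM at 72 h and 1.10 CPM in the healthy library, with overlapping intervals. At 6 weeks S100a6 in the 1070 cells without FB markers was 9.62 CPM (7.63 to 12.0). These selections were chosen after the data had been seen. The 183 FB-like cells of the 72 h library held 16.8% of its S100a6 UMIs. Of these cells, 166 lay in a cluster led by Saa3, Lcn2 and Hp, with 0 FB markers among its 10 leading genes. The part of RNA from the FB-like cells in the HSC-like values was not tested. The leucocyte markers summed to 6.98, 12.9 and 10.7 CPM, and S100a4 at 72 h was 6.41 CPM in cells with none of them.

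In FB-like cells 6 weeks of CCl4 left the members within 2-fold of the healthy level, so 0 of 10 were past the fold used, where 1.38% of all genes were past it upward and 0.366% downward. S100a4 changed most, from 22.0 to 38.0 CPM (35.1 to 41.0), a ratio of 1.73 (1.53 to 1.95), and was seen in 16.7% of cells in place of 7.36%. S100a10 (1436 to 1220 CPM), S100a16 (353 to 304 CPM) and Anxa2 (700 to 586 CPM) were lower, by ratios of 0.849, 0.859 and 0.837. The median member ratio was 1.00 and that of all genes 0.984.

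The make-up of the FB-like class changed with condition, and this bears on the members' values. Cluster 8, led by Ly6c1 and Pi16, held 1452 of the healthy FB-like cells (35.5%) and 18.3% of those at 6 weeks, and cluster 2, led by Penk and Cxcl13, went from 31.2% to 52.2%. Cluster 8 had the highest healthy S100a6 (3470 CPM), S100a4 (34.2 CPM), S100a10 (1923 CPM), S100a16 (431 CPM), Anxa1 (721 CPM) and Anxa2 (986 CPM) of the 4 clusters. S100a6 was higher after CCl4 within all 4 clusters, by ratios from 1.04 to 1.22, while the class as a whole gave 1.02. S100a4 was higher within all 4 (1.38 to 3.40), as was Anxa1 (1.02 to 1.68), whose class ratio was 1.05, and S100a16 was lower within all 4 (0.857 to 0.977). S100a10 was lower in 3 of 4 clusters and Anxa2 in 2 of 4.

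In VSMC-like cells S100a4 went from 43.0 to 189 CPM (181 to 196) after 6 weeks of CCl4, a ratio of 4.38 (3.84 to 5.02), and was seen in 36.5% in place of 10.7% of cells, or 23.5% and 6.75% of cells thinned to 2000 UMIs. It was 1 of 10 members past the fold used, where 2.26% of all genes were past it upward and 0.357% downward. For comparison, healthy HSC-like cells, with a median depth of 6718 UMIs against 3218 and 4551 in VSMC-like cells of healthy mice and at 6 weeks, showed S100a4 in 0.0292% of cells. Most of the class lay in cluster 6 in healthy mice (63.4%) and in cluster 4, led by Ephx3, Cd24a and Higd1b, at 6 weeks (58.1%). S100a4 was higher at 6 weeks within cluster 4 (69.2 to 281 CPM), within cluster 6 (33.1 to 77.2 CPM) and within cluster 15 (39.5 to 55.7 CPM).

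Leucocyte markers, another source of S100a4, summed to 8.47 CPM in healthy VSMC-like cells and 3.62 CPM at 6 weeks. In cells without a UMI of these markers S100a4 stood at 43.4 CPM in healthy mice and 189 CPM at 6 weeks. In cells without a UMI of the FB markers it stood at 46.1 CPM (33.2 to 62.3) in 324 healthy cells and 209 CPM in 216 cells at 6 weeks. Anxa1 was also higher within all 3 VSMC-like clusters (1.03 to 1.59), with 137 and 183 CPM in the class, and S100a6 within 2 of 3, with 1023 and 1241 CPM. Over the class the median member ratio was 1.06, against 1.03 for all genes.

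**Figure D4:**
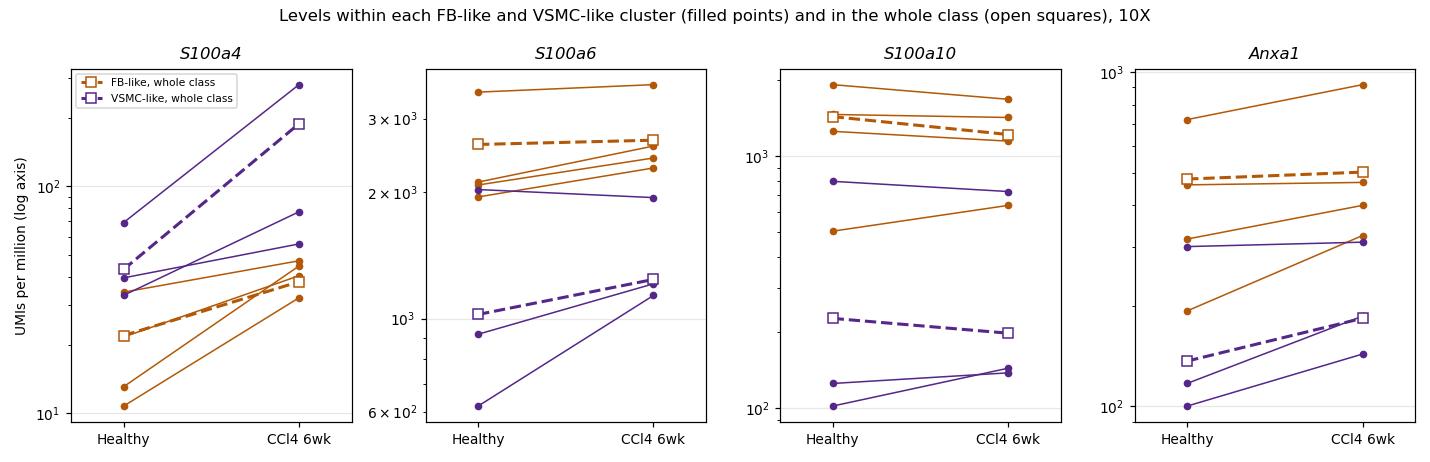
Level of S100a4, S100a6, S100a10 and Anxa1 in healthy mice and after 6 weeks of CCl4, in CPM on log axes that differ between panels, for each FB-like cluster (orange) and VSMC-like cluster (purple) with a line joining both libraries. Open squares are the whole classes. All S100a4 lines slope upward, and the S100a6 lines of the 4 FB-like clusters slope more than the line of the whole class.

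Smart-seq2 plates gave the replicated comparison, and the only one with BDL. Each FB-like and VSMC-like test had 15 portions, 6 of healthy mice, 5 of BDL and 4 of CCl4, of which plates 1, 2 and 4 held BDL and plates 3 and 5 CCl4 beside healthy wells, with plate as a term. The labels do not say whether a mouse name on 2 plates is the same mouse, so p-values measure the spread between portions, which may be technical. Plates 1 and 2 bear the same mouse names with the same numbers of wells (174, 80 and 128). The 5 BDL portions may therefore come from fewer than 5 mice. By edgeR's quasi-likelihood test, 0 of the 10 members had an adjusted p under 0.05 in any of the 6 comparisons, and few genes did: 0% upward and 0% downward of 13965 genes in FB-like wells for BDL, 0.0143% upward for CCl4, and 0.00764% of 13084 genes upward in VSMC-like wells for BDL. At an unadjusted p under 0.05, which 3.59% to 9.32% of all genes reached, the members numbered 2 (S100a4 and S100a10) in FB-like wells after BDL, 1 (S100a6) after CCl4, and 4 (S100a4, Anxa1, Anxa2 and Anxa3) in VSMC-like wells after BDL and 2 (S100a6 and Anxa1) after CCl4. Between BDL and CCl4 FB-like wells gave 2 (S100a4 and Anxa3) and VSMC-like wells gave 0. After BDL, DESeq2 called 2 members for FB-like and 3 for VSMC-like wells, and 0 in the other 4 comparisons. Of all genes tested in FB-like wells after BDL, DESeq2 called 3.93% upward, where S100a4 was, and 1.12% downward, where S100a10 was. In VSMC-like wells it called 2.11% upward, where S100a4, Anxa2 and Anxa3 were, and 0.757% downward. Where it called 0 members, it called 1.95% upward and 0.408% downward for CCl4 in FB-like wells, and 0.841% and 0.596% in VSMC-like wells. For BDL against CCl4 these shares were 0.773% and 0.58% in FB-like wells, then 0.772% and 0.443% for VSMC-like ones. In simulated counts of the same design, edgeR recovered 15.6% of changes of 2 on the log2 scale for FB-like wells after BDL and 35.1% for the VSMC-like ones, and 0% and 2.04% of changes of 1, so a gene that was not called may still have changed.

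S100a4 was the member that stood apart after BDL. In FB-like wells the 6 healthy portions ran from 0 through a median of 16.5 to 37.5 CPM. The 5 BDL portions stood at 87.6, 99.5, 141, 415 and 459 CPM, all above every healthy portion. Those at 415 and 459 CPM held only 9 and 13 wells and both bore the mouse name Peak BDL 2. The other BDL portions held 63 to 119 wells. The 4 CCl4 portions stood at 9.18, 16.9, 40.7 and 66.1 CPM and overlapped the healthy range. The fitted log2 fold change for BDL was 3.43 ± 0.83 (SE), with an edgeR adjusted p of 0.231. DESeq2 gave 3.48 with an adjusted p of 5.79e-05, and the adjusted p ranged from 5.79e-05 to 0.966 over 24 alternatives. The share of wells with a read of S100a4 was 33.7% to 88.9% in BDL portions and 0% to 30.2% in healthy portions.

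In VSMC-like wells S100a4 stood at 239, 277, 591, 674 and 788 CPM in the BDL portions. The healthy portions ran from 12.9 through a median of 39.2 to 315, and the portion at 315, from plate 4, was above the BDL portion of its own plate at 239. The log2 fold change was 2.99 ± 1.05 (SE; edgeR adjusted p = 0.559). The DESeq2 adjusted p was 0.0228, in a range of 5.02e-07 to 1 over 23 alternatives. After CCl4 the portions stood at 90.9 and 222 CPM on plate 3, where the healthy portion was at 12.9, and at 105 and 191 CPM on plate 5, where it was at 98.6. All 4 were above the healthy portion of their own plate but within the range of all 6, with a log2 fold change of 1.84 ± 1.01 (edgeR adjusted p = 1, 0.0300 to 1 over 23 alternatives). Without the healthy portion of plate 4, left out after the data had been seen, the other 5 healthy portions reached 98.6. The 5 BDL portions, that of plate 4 included, and 3 of the 4 CCl4 portions then lay above every healthy one. Since the portion left out was the highest healthy one, this separation follows from the choice. Single portions moved both values: for BDL the log2 fold change was 1.82 without the healthy portion of plate 2 and 4.04 without that of plate 4 or its BDL portion, and for CCl4 it was 0.62 without the healthy portion of plate 3 and 3.61 without that of plate 5, with no edgeR call.

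Leucocyte markers varied between portions beside these values. They summed to 0.578 to 640 CPM in FB-like BDL portions, 2.50 to 140 in healthy and 258 to 568 in CCl4 portions, and to at most 70.1 in VSMC-like portions. In wells with no read of a leucocyte marker, a selection made after the data had been seen, S100a4 was at 94.6 to 629 CPM in FB-like BDL portions and 0 to 39.6 in healthy ones. In VSMC-like wells the same selection gave 239 to 735 after BDL and 14.1 to 301 in healthy portions.

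S100a10 in FB-like wells lay lower after BDL. The 5 BDL portions stood at 221, 248, 318, 373 and 468 CPM and the healthy portions between 412 and 760 with a median of 528, so that 4 of 5 were below every healthy portion. The log2 fold change was -0.78 ± 0.21 (SE; edgeR adjusted p = 0.330). In DESeq2 it was -0.76 with an adjusted p of 0.0112, the lowest of 24 alternatives, which reached 0.966. Anxa2, its partner, did not move with it, at 477 to 1111 CPM after BDL against 593 to 769.

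In VSMC-like wells Anxa2 and Anxa3 were the annexins farthest from healthy after BDL. Anxa2 stood at 375, 400, 466, 475 and 544 CPM in BDL portions, and at 195 to 260 in the 6 healthy portions, with no overlap. The log2 fold change was 1.02 ± 0.27 (SE; edgeR adjusted p = 0.458). Its adjusted p ranged from 0.0123 to 1 over 23 alternatives. Anxa3 stood at 168 to 302 after BDL against 58.2 to 172, with a log2 fold change of 1.02 ± 0.31 (edgeR adjusted p = 0.496, 0.0421 to 1 over 23 alternatives). S100a11 also did not overlap (76.4 to 107 against 31.5 to 69.1), with a log2 fold change of 0.42 (edgeR adjusted p = 0.742). Among 10 members in each of 4 comparisons with healthy mice, 4 pairs of groups did not overlap, the fourth being Anxa2 in FB-like wells after CCl4. The shares of all genes whose injured portions lay above every healthy portion were 0.859% in FB-like wells after BDL (1 of 10 members) and 3.39% after CCl4 (1 of 10), and 1.09% in VSMC-like wells after BDL (2 of 10) and 0.397% after CCl4 (0 of 10). Downward, where no member stood apart, the shares in the same order were 0.852%, 0.967%, 1.02% and 0.397%.

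**Figure D5:**
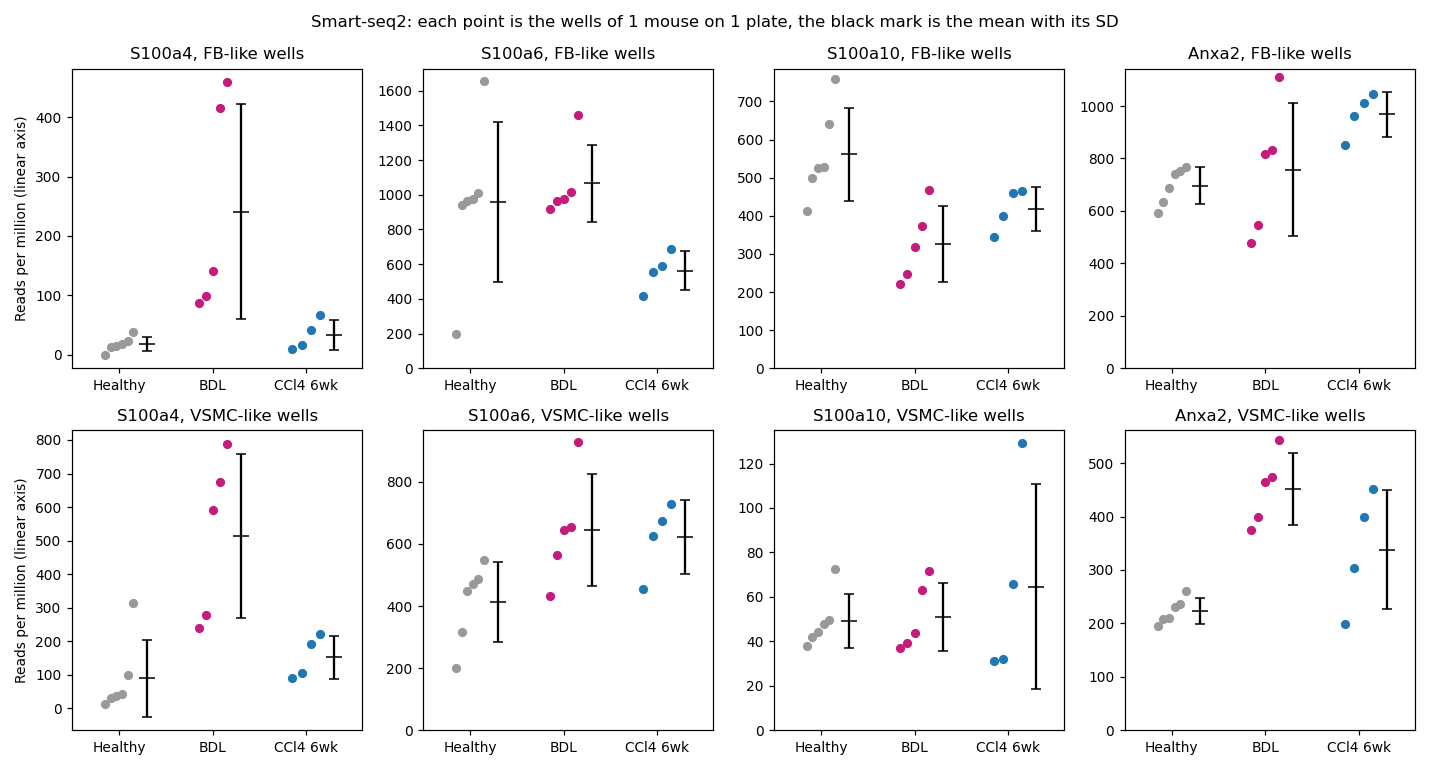
CPM of S100a4, S100a6, S100a10 and Anxa2 in FB-like (top) and VSMC-like wells (bottom) of Smart-seq2, on linear axes that differ between panels. Each point is the wells of 1 mouse on 1 plate, and the black mark is the mean with its SD. The 5 BDL portions lie above every healthy portion for S100a4 in FB-like wells and for Anxa2 in VSMC-like wells.

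After CCl4 the FB-like wells held a cluster of 166 wells led by Hp, Cxcl5, Saa3 and Lcn2, of which 143 came from CCl4 mice, and the values of Anxa2, Anxa1 and S100a6 moved with it. Anxa2 was at 851 to 1046 CPM in the CCl4 portions against 593 to 769 in healthy ones, and without this cluster at 650 to 847 against 557 to 769. S100a6 was at 417 to 690 in CCl4 portions, and at 803 to 941 without the cluster, where healthy portions ran from 203 to 1654. Its log2 fold change was -0.74 with all FB-like wells (edgeR adjusted p = 0.777) and -0.13 without the cluster. Anxa1 stood at 973 ± 296 (n = 4) and 571 ± 137 (n = 4) with and without it, against 573 ± 279 (n = 6) in healthy portions with it. Leaving out this cluster was chosen after the data had been seen, and it changed no edgeR call.

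The other genes of both families gave no member of comparable size. Of 19 further S100 and annexin genes, 5 reached 20 CPM in each 10X class, and 0 of these 5 were past the fold used in any comparison. Of 14 genes whose proteins bind S100 proteins or annexins or act with them, 11 reached 20 CPM in HSC-like cells at 72 h. Of these 11, 1 was past the fold upward and 1 downward, near the shares of all genes, 6.43% upward and 9.53% downward. The gene past it upward was Myof, a ferlin of membrane repair, at 0.970 CPM in healthy cells, 27.3 at 72 h and 12.8 at 6 weeks. Myof lay under the level set for naming and was chosen after its values were seen. The gene past it downward was Cacybp, which encodes a calcyclin-binding protein. Its level was 181 CPM in healthy cells, 82.9 at 72 h and 170 at 6 weeks. In the Smart-seq2 tests 0 genes of either list were called by edgeR.

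The genes whose levels followed S100a6 most closely over the 7 combinations of class and condition, by Pearson r of log2(CPM + 1) among 7530 genes, were Glrx (0.982), Atp6v0d1 (0.979) and Gprc5b (0.977). For Anxa2 they were Acap2 (0.996), Tmed10 (0.992) and Keap1 (0.991). Among the members themselves S100a6 was most like S100a16 (0.930) and S100a4 (0.876), and S100a10 most like Anxa5 (0.932) and Anxa1 (0.931). With 7 points that share libraries and digestions, these values describe the pattern only.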

How the data were processed

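The deposited 10X tables hold raw UMI counts, one matrix a library, which came from Cell Ranger 2.1.0 and the mm10 genome. For Smart-seq2, they aligned reads with STAR to mm10 with eGFP and spike-ins and deposited read counts per gene and well. The members and all gene lists were chosen with earlier results of these data known. All 10 members were named in every comparison. Genes of the other lists were given values only if called, or past 2-fold with at least 50 CPM. The likeness rule named 3 genes each for S100a6 and Anxa2.

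Cells with fewer than 300 genes or over 30% mitochondrial UMIs were left out, and so were wells beyond 3 median absolute deviations. This kept 2065 of 2292 wells, with a median of 445569 reads. Clustering used Leiden (leidenalg 0.10.2; 2000 variable genes, 10 components, 30 neighbours, resolution 0.8) in Python 3.11.15. Marker lists held 5 to 8 genes a type. Called doublets (4.36% to 5.84% of a library) stayed in.

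Wells were summed by class, mouse and plate, with at least 5 wells in a sum, the eGFP row left out and repeated symbols kept apart. Sums were tested with edgeR 4.0.16 in R 4.3.3 (TMM, filterByExpr, plate term, Benjamini-Hochberg, two-sided, 7 residual degrees of freedom), with DESeq2 1.42.0 as an alternative. The self-test simulated this design. S100a10 and S100a11 have processed copies in many genomes, and how multiply mapping reads were shared is not given in the sources used here, so their counts are uncertain.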

Additional observations from a re-analysis of the deposited data

Results flagged for a closer look

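Of 60 groups of 4 to 6 portions, 3 held a portion whose gap to the others was past Dixon's 95% critical value, and chance at 1 in 20 gives 3. S100a6 in FB-like wells stood at 1457 CPM in plate 2 Peak BDL 1, against 915 to 1018 in the other 4 BDL portions. S100a4 in VSMC-like wells stood at 315 in the healthy portion of plate 4, against 12.9 to 98.6 in the other 5. S100a10 in VSMC-like wells stood at 72.4 in the healthy portion of plate 2, against 37.9 to 49.7 in the other 5.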

How the results depend on the processing

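No member was past the fold in FB-like 10X cells, and with all kept cells of both PF libraries 1 was. After BDL, the count of members called was 2 by DESeq2, 1 with every gene that had a read and 1 with no plate term in FB-like wells, where edgeR called 0. In VSMC-like wells the same settings gave 3, 2 and 1, and after CCl4 the any-read setting gave 1. All calls of the last 2 settings were upward, where 0.834% and 0.415% of all genes were called in FB-like and 0.523% and 0.206% in VSMC-like wells after BDL, and 0.0801% in VSMC-like wells after CCl4 with every gene that had a read. The cause was not tested. Leaving out each portion in turn gave 0 to 0 members called in all 6 comparisons. Of 1410 alternative log2 fold changes, 11 passed the threshold where the value reported did not, and 86, in 29 of 60 values, changed sign with no call in either setting. Of 180 alternative 10X ratios for 36 values, 65 moved by more than counting error, and those near 1 changed side in 9 of 36 with all cells of a library and in 2 to 5 of 36 under the other 4 settings. S100a6 at 72 h kept a ratio of 69.6 to 90.1, and S100a4 in VSMC-like cells one of 3.95 to 4.71. The settings that left out a cluster or a CCl4 plate, chosen after the data had been seen, called 0 members. No paired analysis was possible because the labels give the plates no replicate numbers that pair them, and plate was instead a term of the fit. The 1 library for each 10X condition and 7 residual degrees of freedom limit what could be called.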

Other observations

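A further cluster of 27 Smart-seq2 wells carried mesothelial markers and entered no comparison. Its wells held S100a6 at 1753, Anxa2 at 2152, Anxa1 at 1516 and Anxa3 at 919 CPM, while Anxa6 stood at 91.0 and S100a4 at 72.0. These are single sums over wells of healthy, BDL and CCl4 mice, 15 of them from 1 portion of plate 5, where Anxa2 stood at 2183. In the 10X libraries of the HSC isolation, a cluster of 166 cells at 72 h led by Saa3, Lcn2 and Hp held most of the cells named FB-like there. Its S100a6 level was 2079 CPM (2023 to 2137), against 400 CPM in the largest HSC-like cluster of that library.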
